A study of Homo sapiens with 17 samples.

Results

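The 10 immediate early genes FOS, FOSB, JUN, JUNB, EGR1, EGR2, EGR3, IER2, NR4A1 and ZFP36, were followed across the 17 Ishikawa cell cultures of the series. They are 10 of the 60662 genes in the count table, and were chosen by name as immediate early genes that were higher with the ethanol vehicle. The choice did not name the cultures that served as the baseline. It was read here as EtOH vehicle against control, and values that use either group are therefore given without a test. If the Nap vehicle cultures also served in that choice, the comparison of P4 with Nap vehicle shares those cultures with it. All 10 members passed the filter on low counts, but FOSB and EGR2 passed it only through the groups where they were high, and 8 members also passed it in the control, Nap vehicle and titled PSAT1_P4 cultures alone. Differences of FOSB and EGR2 between high and low groups are therefore given without a test.

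Ishikawa is a human endometrial adenocarcinoma cell line with epithelial features that is used as a model of the endometrial epithelium, so all cultures share 1 transformed genotype. Total RNA was sequenced after 24 h of treatment. Control cultures (n = 3) received medium only. The Nap vehicle cultures (n = 2) received a vehicle the labels call Nap, a name they do not define, and the EtOH vehicle cultures (n = 3) are titled Vehicle Nap EtOH and described as receiving 70% ethanol, which may be the stock rather than the final strength. The P4 cultures (n = 3) received the Nap vehicle with progesterone (P4). Ethanol is named in the labels for the EtOH vehicle cultures only, and the labels give no solvent for the P4 added to other cultures. The study's methods list ethanol as the vehicle control beside the P4 treatments, so cultures with P4 may have received it too. A figure legend of the study gives a lower strength than 70% for that control. P4 and any solvent that came with it cannot be told apart.

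Another 6 cultures received recombinant human PSAT1, alone or with P4, and their labels contradict each other. The 3 cultures with PSAT1 in the title and treatment have count columns named PSAT1_P4, and the 3 cultures with PSAT1_P4 in the title and treatment have count columns named PSAT1. No condition was inferred from the counts. The sets are called titled PSAT1 and titled PSAT1_P4, by their titles, and a difference between these sets turns its sign if the column names are read instead.

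Immediate early genes are transcribed within minutes of a stimulus without new protein synthesis, because the factors that bind their promoters are already in the cell and are switched on by kinases of the MAPK pathway. FOS and FOSB proteins pair with JUN or JUNB to form the AP-1 transcription factor, the EGR proteins are zinc finger factors that bind GC-rich sites, and NR4A1 is an orphan nuclear receptor. IER2 is a nuclear protein of the same early response, and ZFP36 (tristetraprolin) binds AU-rich elements and shortens the life of many cytokine and immediate early mRNAs. Their mRNAs are short-lived and usually fall back within hours.

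Promoter sequences of the members were searched for the elements for which this class of genes is known. They are from RefSeq (GRCh38.p14) and cover the 250 bases before an annotated start. Entries of 9 members were used here, and EGR3 was left out of the search. The CArG box searched is CC, then 6 bases of A or T, then GG, to which serum response factor binds. The core of the cAMP response element (CRE core, TGACG) and the TATA box (TATAAA) were searched with it, on both strands, so a CRE core on the other strand reads CGTCA. The core is contained in the full CRE, and the matches found did not overlap each other. EGR1 is shown because it held 2 CArG boxes, EGR2 because it held the only other CArG box, and FOS and FOSB because they were the AP-1 members furthest above control with the ethanol vehicle. The EGR1 window is chr5:138465229-138465478 on the plus strand, that of EGR2 is chr10:62816367-62816616 on the minus strand, that of FOS is chr14:75278578-75278827 on the plus strand and that of FOSB is chr19:45467746-45467995 on the plus strand. Capitals mark CArG boxes, CRE cores and TATA boxes.
EGR1: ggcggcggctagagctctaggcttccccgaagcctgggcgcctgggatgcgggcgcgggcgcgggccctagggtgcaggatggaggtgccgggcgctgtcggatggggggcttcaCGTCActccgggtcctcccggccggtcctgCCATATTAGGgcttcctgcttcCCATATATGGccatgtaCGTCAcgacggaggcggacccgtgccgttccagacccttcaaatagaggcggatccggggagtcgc
EGR2: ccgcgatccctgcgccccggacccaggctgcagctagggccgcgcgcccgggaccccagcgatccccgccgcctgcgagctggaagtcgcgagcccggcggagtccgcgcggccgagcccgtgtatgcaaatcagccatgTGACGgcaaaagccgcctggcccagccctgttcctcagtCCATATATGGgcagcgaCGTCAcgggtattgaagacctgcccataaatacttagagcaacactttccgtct
FOS: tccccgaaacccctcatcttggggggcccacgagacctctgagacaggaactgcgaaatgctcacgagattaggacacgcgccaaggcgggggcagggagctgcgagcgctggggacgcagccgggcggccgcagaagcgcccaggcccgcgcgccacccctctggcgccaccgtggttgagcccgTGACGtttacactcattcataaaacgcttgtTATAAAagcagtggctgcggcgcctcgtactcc
FOSB: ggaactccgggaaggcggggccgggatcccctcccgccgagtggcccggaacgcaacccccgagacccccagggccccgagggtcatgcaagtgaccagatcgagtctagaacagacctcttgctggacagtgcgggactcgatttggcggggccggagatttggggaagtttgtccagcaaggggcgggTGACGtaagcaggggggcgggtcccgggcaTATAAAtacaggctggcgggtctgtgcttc

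The CArG boxes of EGR1 lay at bases -105 to -96 and -83 to -74 from the start, and that of EGR2 at -71 to -62 from 1 of its 3 RefSeq starts. A member was counted once if any of its starts held a motif, and EGR2 had 3 starts and NR4A1 had 2, so the 9 members had 12 windows, whereas the shares of all promoters are per window. CArG boxes were found in 2 of 9 members (2 of 12 windows), against 1.16% of the 35116 promoter windows of the same length. The CRE core was found in 7 of 9 members (7 of 12 windows), against 21.22% of windows. The TATA box was found in FOS, FOSB and JUNB (3 of 12 windows), within -33 to -25 of the start, against 10.72% of windows. The full CRE (TGACGTCA) and the AP-1 site (TGANTCA) were in 0 of 9 members, against 1.65% and 6.57% of windows, and the EGR site (GCGNGGGCG) was in EGR1 only, against 8.41%. ZFP36 and NR4A1 held none of the 6 motifs in these windows. For NR4A1 the windows were those of starts at chr12:52022832 and chr12:52037715 only. Any start of NR4A1 further along the gene, which ends at 52059507, was not searched. These matches describe letters in a window, with no measure of binding here. Bases further from the start were not searched, so a member without a match, such as FOS for the CArG box, may hold one there.

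**Figure D1:**
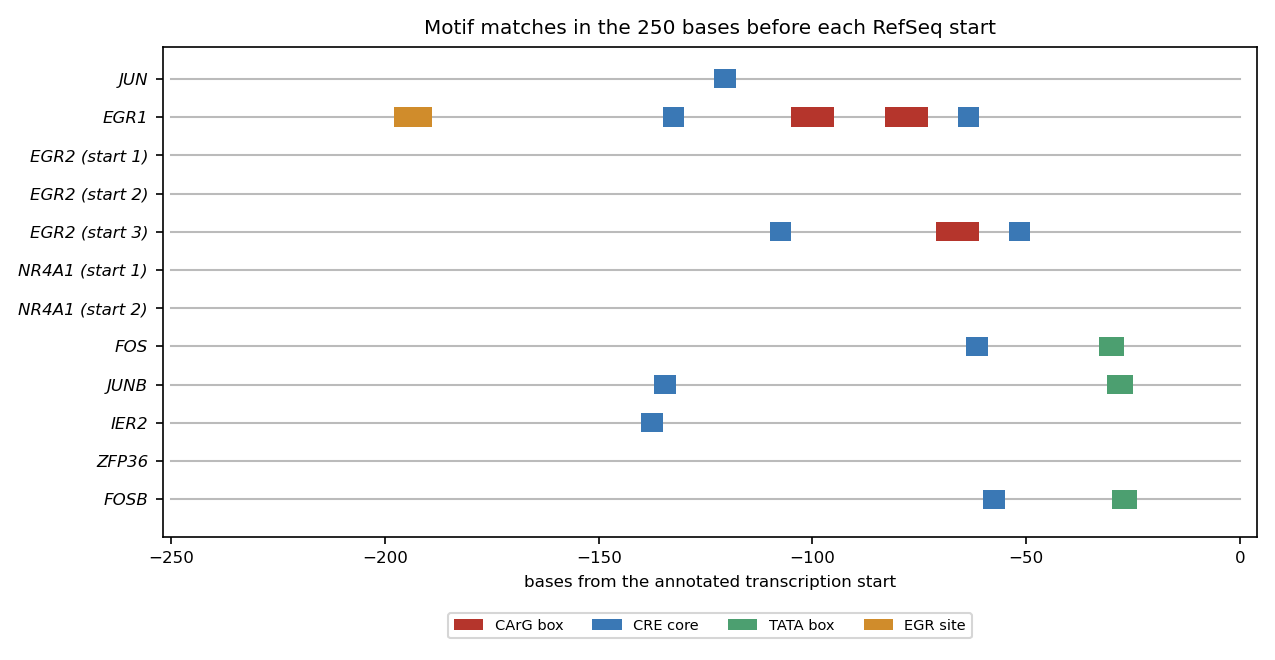
Positions of motif matches (coloured blocks) in the 250 bases before each RefSeq start, with 1 line per start and the horizontal axis in bases from the start. Within these 250 bases, CArG boxes sit only in EGR1 and 1 EGR2 start, while CRE cores are spread over 7 genes.

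The libraries held 4999521 to 19704493 counted reads, and the shallowest was EtOH vehicle culture 1. The mitochondrial rRNA gene MT-RNR2 took 20.2% to 27.1% of the counts. All 5 epithelial markers were detected in every group, with summed levels of 929 to 1370 CPM (counts scaled to a library of 1000000 reads), whereas the leukocyte markers summed to at most 1.05 CPM and the endothelial markers to at most 1.6 CPM. Stromal fibroblast markers, mostly COL1A2, summed to 418 to 621 CPM in control, 418 to 611 CPM in Nap vehicle and 427 to 645 CPM in titled PSAT1_P4 cultures, against 343 to 358 CPM with EtOH vehicle, 127 to 179 CPM with P4 and 129 to 159 CPM in the titled PSAT1 cultures. DCN and PDGFRB never exceeded 2 and 6 counts in a library. These marker levels moved with the groups compared below, their part in those results was not tested, and in bulk RNA fewer cells and less RNA per cell cannot be told apart.

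Levels of the members are given as CPM scaled with TMM factors. FOS, the archetypal AP-1 partner (chr14:75278774-75282230), stood at 1.56, 1.51 and 0.967 CPM in the 3 control cultures and at 1.57 and 2.28 CPM with Nap vehicle. It reached 124, 117 and 116 CPM with EtOH vehicle, 116, 86.8 and 96.7 CPM with P4, and 115, 93.9 and 93.8 CPM in the titled PSAT1 cultures. The titled PSAT1_P4 cultures returned 1.4, 1.54 and 1 CPM. FOS therefore occupied a low range and a high range, with no culture between 2.28 and 86.8 CPM.

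FOSB (chr19:45467995-45475179), a relative of FOS with the same role in AP-1, followed the same split from a lower base. Its control cultures held 7, 17 and 3 reads (0.377, 0.884 and 0.223 CPM) and its Nap vehicle cultures 7 and 5 reads. With EtOH vehicle it stood at 57.9, 81.2 and 74.7 CPM, with P4 at 49.4, 63.1 and 53.1 CPM, and in the titled PSAT1 cultures at 49.2, 56.7 and 52.5 CPM. In the titled PSAT1_P4 cultures 6, 9 and 5 reads were counted.

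JUN (chr1:58780788-58784327), which can pair with itself as well as with FOS proteins, was at 1.72, 1.46 and 1.71 CPM in control and 1.18 and 1.54 CPM in Nap vehicle cultures. It stood at 25.7, 32.5 and 24.2 CPM with EtOH vehicle and at 29.1, 53.9 and 40.3 CPM with P4. The titled PSAT1 cultures held 39.1, 45.4 and 41.3 CPM and the titled PSAT1_P4 cultures 2.17, 1.8 and 1.65 CPM. JUN was the only member with means above that of the EtOH vehicle by more than 1 SD of either group compared. Its mean was highest in the titled PSAT1 cultures, at 42 ± 3.2 CPM. It was 41.1 ± 12.4 CPM with P4 and 27.4 ± 4.42 CPM with EtOH vehicle (SD, n = 3 each), although the ranges of the P4 and EtOH vehicle cultures overlapped.

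JUNB (chr19:12791496-12793315), which often dampens transcription by JUN, moved over a narrower range. It averaged 6.99 ± 0.655 CPM in control, 5.8 ± 0.632 CPM in Nap vehicle, 24.6 ± 2.57 CPM in EtOH vehicle and 18.2 ± 3.74 CPM in P4 cultures (SD, n = 3, and n = 2 for Nap vehicle). Its exons share 14.2% of their bases with HOOK2 on the opposite strand. The strand setting of the counting is not given in the sources used here, so reads there could belong to either gene.

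EGR1 (chr5:138465490-138469315) was at 4.53, 8.53 and 5.21 CPM in control cultures and 4.88 and 8.6 CPM with Nap vehicle. It stood at 146, 209 and 190 CPM with EtOH vehicle, 150, 136 and 132 CPM with P4 and 144, 116 and 139 CPM in the titled PSAT1 cultures. The titled PSAT1_P4 cultures were at 4.91, 8.54 and 5.19 CPM, within the control range to the first decimal. EGR1 was the most abundant member per kilobase of exon in the high groups.

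EGR2 (chr10:62811996-62919900), a factor known from hindbrain and Schwann cell development, was the weakest member. It had 2, 5 and 2 reads in the control cultures, 3 reads in each Nap vehicle culture, and 0, 6 and 1 reads in the titled PSAT1_P4 cultures, where the count of 0 allows up to 0.191 CPM. EtOH vehicle brought 24, 100 and 82 reads (4.6, 7.38 and 6.6 CPM), P4 cultures 51, 44 and 55 reads, and titled PSAT1 cultures 67, 27 and 30 reads. In the groups where EGR2 was low, its differences rest on a handful of reads.

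EGR3 and NR4A1 behaved differently from the other members among the high groups. EGR3, a factor induced in parallel with EGR1, was at 2.53, 3.43 and 3.72 CPM in control and 40.6, 50.3 and 47.5 CPM with EtOH vehicle, but only 11.2, 7.14 and 7.94 CPM with P4 and 10.2, 6.36 and 5.79 CPM in the titled PSAT1 cultures. NR4A1 (chr12:52022832-52059507) went from 4.31, 4.11 and 3.79 CPM in control to 145, 110 and 96.4 CPM with EtOH vehicle, against 53.1, 21.8 and 24.6 CPM with P4 and 40.1, 23.4 and 19.6 CPM in the titled PSAT1 cultures. P4 culture 1 was the highest of its group in CPM for both genes, and for FOS, EGR1 and EGR2 as well. The same culture was the lowest of its group for FOSB, JUN, IER2 and ZFP36.

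IER2 (chr19:13150415-13154908) averaged 8.17 ± 1.38 CPM in control, 45.4 ± 1.95 CPM in EtOH vehicle, 36.3 ± 2.38 CPM in P4 and 35 ± 3.87 CPM in titled PSAT1 cultures (SD, n = 3). ZFP36 (chr19:39406813-39409412) averaged 3.14 ± 0.207, 15.5 ± 0.78, 15.5 ± 1.24 and 14.5 ± 1.98 CPM in the same order. ZFP36 was thus at the same mean in EtOH vehicle and P4 cultures. Antisense genes share 30.8% of the exon bases of IER2, 10.3% of those of NR4A1 and 3.4% of those of EGR3, which leaves part of their reads open to the same doubt as for JUNB. For all 10 members, each of the 9 EtOH vehicle, P4 and titled PSAT1 cultures lay above each of the other 8 cultures, a division noticed after the values were seen and given as a description. Of all 18232 genes tested, 5.46% had these 9 cultures above the other 8 and 4.82% had them below.

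**Figure D2:**
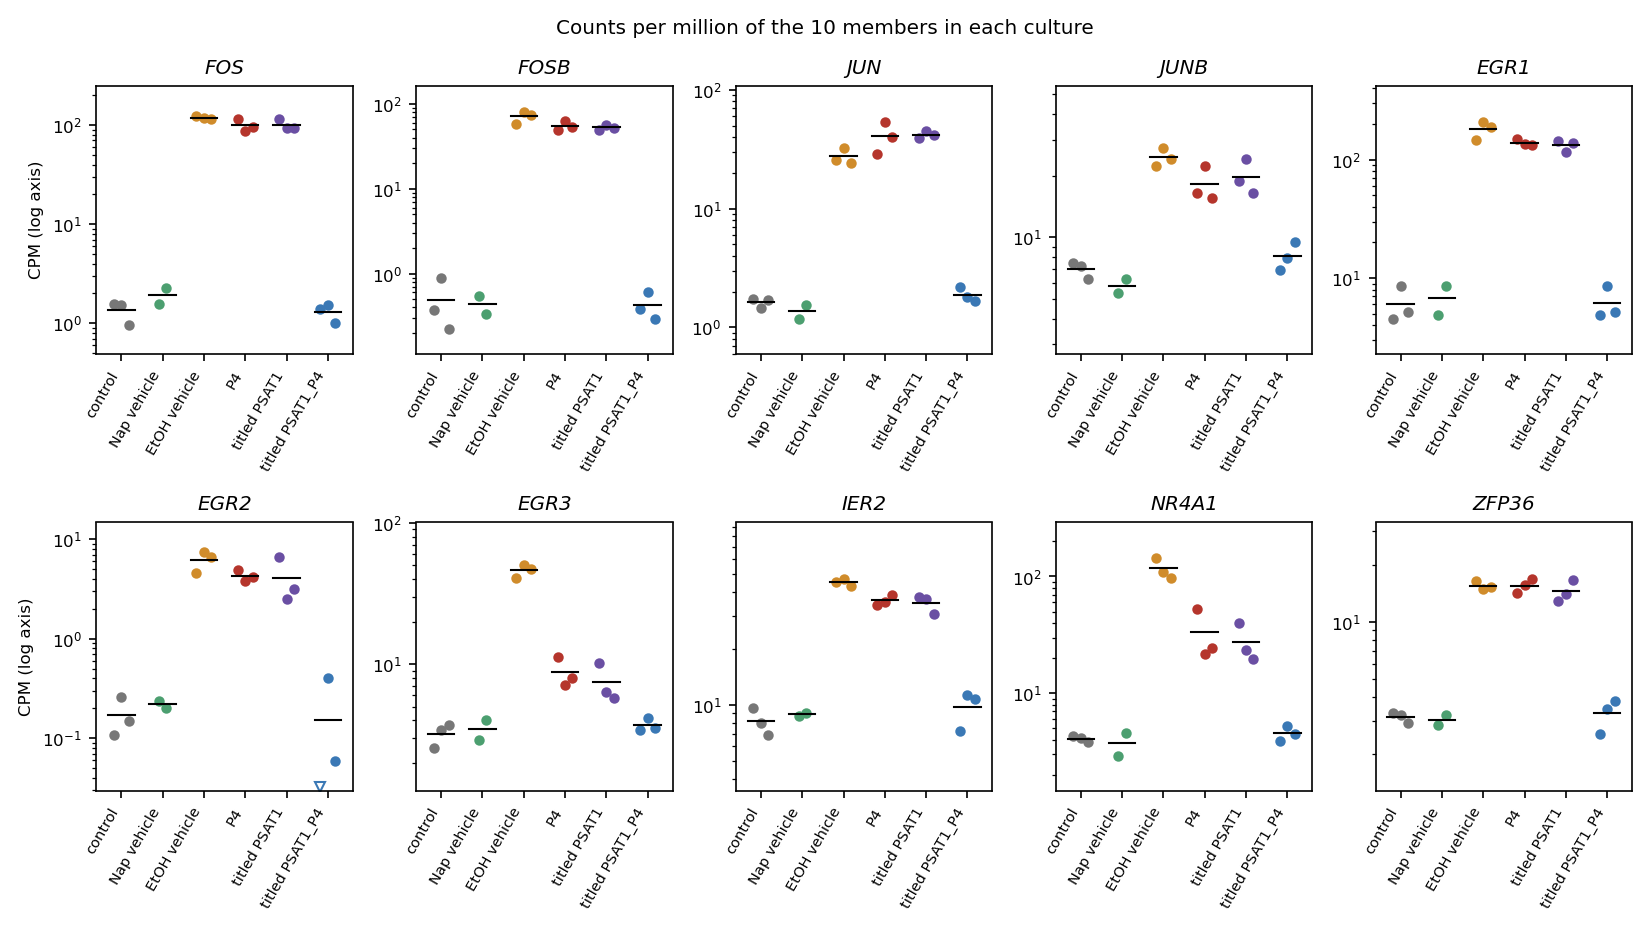
CPM of each member (log axis, 1 panel per gene) in the 17 cultures, with points for cultures and a line for each group mean; the open triangle is an EGR2 count of 0. In every panel the EtOH vehicle, P4 and titled PSAT1 cultures lie above the rest, and EGR3 and NR4A1 have an intermediate level in P4 and titled PSAT1 cultures.

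Per kilobase of exon, the EtOH vehicle cultures ranked EGR1 first at 58 CPM per kb (46.7 to 66.6), followed by FOS at 36.8 CPM per kb (35.9 to 38.4). NR4A1 (13.2 to 19.8), IER2 (14.1 to 15.4), JUNB (12.3 to 15.1) and FOSB (10.4 to 14.6 CPM per kb) came next, with ranges that overlapped from neighbour to neighbour. EGR3 (8.37 to 10.4), JUN (6.82 to 9.17) and ZFP36 (7.34 to 8.11) overlapped in the same way, and EGR2 was last at 1.68 CPM per kb. The control order differed, with JUNB first at 3.84 CPM per kb, then IER2 at 2.66 and EGR1 at 1.94, while FOS stood at 0.416 CPM per kb.

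For the ethanol vehicle against control, which chose the members, the values are a description. The median log2 fold change of the members was 4.45, against -0.006 over all 18232 genes tested, and ran from 1.82 for JUNB to 7.08 for FOSB. All 10 members were higher in every EtOH vehicle culture than in any control culture, a pattern shown by 18.7% of all genes, with 18.6% lower in every culture. From pooled counts, FOS was 85.1-fold higher (counting interval 67.3 to 109), FOSB 142-fold (97.2 to 216) and EGR2 37.6-fold (19.4 to 83.4), intervals at the 95% level that cover counting error only. Without control culture 2, which held 17 of the 27 control reads of FOSB, its fitted log2 fold change went from 7.08 to 7.81. EGR1 and NR4A1 differed by 4.89 ± 0.25 and 4.82 ± 0.40 on the log2 scale (SE), and JUNB and ZFP36 by 1.82 ± 0.15 and 2.28 ± 0.15.

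Against Nap vehicle the EtOH vehicle cultures gave a member median of 4.53, again with no overlap in any member, where 24.2% of all genes were higher and 23.7% lower in every culture. The Nap vehicle cultures themselves lay close to control, with a member median of 0.03 and a range of -0.27 to 0.50 on the log2 scale, where 8 members overlapped between the groups. FOS was above and JUNB below the control range in both Nap vehicle cultures, by 0.50 ± 0.29 and -0.27 ± 0.20 (log2, SE). Of all genes, 6.01% were above and 6.54% below the control range in both Nap vehicle cultures.

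Other immediate early genes were not chosen by the members' rule, but their list was drawn up with earlier results of these data known. Of its 40 genes, 39 could be tested by edgeR with p-values adjusted over all genes. With EtOH vehicle against control, 22 of 39 rose and 0 fell, where 10.0% of all genes rose and 9.29% fell. NR4A3 and NR4A2, the other orphan receptors of the NR4A family, rose by 4.39 ± 0.33 and 2.56 ± 0.17 on the log2 scale (adjusted p = 9.4e-11 and 4.7e-12). KLF6, a zinc finger factor, and MCL1, a short-lived survival protein of the BCL2 family, rose by 1.24 ± 0.11 and 0.78 ± 0.07 (adjusted p = 2.8e-09 and 5.8e-09). JUND, a JUN relative that is often expressed without a stimulus, was at 41.3 CPM against 34 CPM and did not pass here (adjusted p = 0.24). It did rise in P4 cultures, to 126 CPM, against 30.5 CPM in Nap vehicle cultures (adjusted p = 9.7e-08). It was also higher with P4 than with EtOH vehicle (adjusted p = 3.1e-07). Against Nap vehicle, with the same EtOH vehicle cultures, the list gave 22 genes higher and 0 lower, with 7.32% of all genes higher and 5.35% lower. Nap vehicle against control gave 0 of 39 in either direction, with 0.00548% of all genes (1 gene) higher and 0% lower by edgeR, 281 genes at an unadjusted p under 0.05, and 1 gene called by DESeq2.

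Of 14 upstream kinases and factors, 4 rose with EtOH vehicle against control and 0 fell. SRF, the factor that binds CArG boxes, rose from 34.3 ± 2.85 to 70.4 ± 13 CPM (log2 1.06 ± 0.13, adjusted p = 2.9e-05), and its coactivators MRTFA and MRTFB rose by 0.64 ± 0.11 and 0.28 ± 0.09 on the log2 scale (adjusted p = 0.00011 and 0.023). ELK3, a partner of SRF, was the last of these 4, at 0.30 ± 0.10 (adjusted p = 0.039). Of 11 genes of MAPK feedback, 3 rose and 0 fell, namely the ERK phosphatase DUSP5 (2.46 ± 0.32, adjusted p = 0.00011) and the pathway inhibitors SPRY2 (0.59 ± 0.12, adjusted p = 0.00089) and SPRED2 (0.35 ± 0.09, adjusted p = 0.0071). Of 8 tested partners and targets of EGR and AP-1 proteins, none passed, and the smallest adjusted p was 0.089 (CCND1).

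Heat shock genes rose in the EtOH vehicle cultures as well, with 5 of 8 tested higher and 0 lower. HSPA1B rose by 0.92 ± 0.14, the co-chaperone DNAJB1 by 0.59 ± 0.10 and HSPA8, the constitutive HSP70, by 0.38 ± 0.09 on the log2 scale (adjusted p = 4.8e-05, 0.00014 and 0.0068). HSPA1B and HSPA1A are near-identical copies, so their reads may have been split or dropped by unique mapping. These changes were small beside those of FOS and EGR1 in the same cultures.

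P4 cultures against Nap vehicle cultures asked whether the members differed when progesterone, with any solvent it came in, was added to the same named vehicle. The members were chosen for a rise with ethanol, so this comparison cannot tell progesterone from an ethanol solvent. The 8 members that also passed the filter in the low groups all rose, with a median log2 fold change of 2.73 against 0.002 over all genes, and in these, as in FOSB and EGR2, the P4 and Nap vehicle cultures did not overlap. In this comparison 27.1% of all genes rose and 25.5% fell, and 33.5% and 32.7% were higher or lower in every culture. The adjusted p-values of the 8 members ran from 9e-20 to 0.00026 (edgeR's quasi-likelihood test).

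Among the AP-1 members, FOS rose by 5.67 ± 0.18, JUN by 4.89 ± 0.27 and JUNB by 1.64 ± 0.19 on the log2 scale (adjusted p = 9e-20, 5.8e-12 and 2.4e-08). From pooled counts FOSB was 127-fold higher, with a counting interval of 72.7 to 247. EGR1 rose by 4.35 ± 0.30 and EGR3 by 1.31 ± 0.24 (adjusted p = 8.1e-08 and 4.6e-05), while EGR2 went from 6 to 150 pooled reads, a ratio of 19.6 (8.82 to 54.4). IER2 and ZFP36 rose by 2.03 ± 0.15 and 2.35 ± 0.18 (adjusted p = 6.1e-12 and 8.2e-12). NR4A1 rose by 3.11 ± 0.51 and had the largest adjusted p of the 8 (0.00026). EGR3, the smallest rise, was still 2.47-fold above the Nap vehicle cultures.

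The same comparison gave 37 of 39 other immediate early genes higher and 0 lower. FOSL2, an AP-1 member of later phases of the response, rose from 8.04 to 43.6 CPM (2.44 ± 0.14, adjusted p = 3.5e-14), and KLF4, a zinc finger factor, from 1.53 to 14.8 CPM (3.28 ± 0.27, adjusted p = 6.5e-11). TIPARP, an ADP-ribosyltransferase, and NFKBIZ, a nuclear regulator of NF-κB, rose by 1.48 ± 0.11 and 2.66 ± 0.20 (adjusted p = 5.1e-12 and 3.6e-11). The exceptions were KLF2 and IER3, at 0.832 against 0.392 CPM and 1.16 against 1.11 CPM (adjusted p = 0.1 and 0.82).

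In MAPK feedback, 9 of 11 genes rose, among them ETV5 (1.82 ± 0.11), SPRY2 (1.82 ± 0.13) and DUSP5 (3.92 ± 0.34), with adjusted p of 1.9e-13, 2.3e-12 and 8.8e-08, and PHLDA1 fell by 0.47 on the log2 scale (adjusted p = 0.022). Of the upstream kinases and factors 7 of 14 rose, led by ATF1, a CRE-binding factor (0.80 ± 0.09, adjusted p = 8e-09), and SRF (1.38 ± 0.15, adjusted p = 2.3e-07). Of the 8 tested partners and targets of EGR and AP-1 proteins, 6 rose and 1 fell. JDP2, a repressor of AP-1, rose by 1.61 ± 0.12, the protease gene PLAU, an AP-1 target, by 2.82 ± 0.24 and NAB1, a corepressor of EGR proteins, by 0.77 ± 0.09 (adjusted p = 5.2e-12, 8.3e-11 and 2.2e-08), whereas CCND1 (cyclin D1) fell from 302 to 119 CPM (adjusted p = 1.7e-07). Of 8 heat shock genes 1 rose and 3 fell, including HSP90AA1, from 786 to 364 CPM (adjusted p = 3.5e-10).

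Stromal fibroblast markers fell in this comparison, 3 of 4 tested, with COL1A2 going from 398 to 84.7 CPM (adjusted p = 3.9e-05), and 3 of 5 epithelial markers fell, namely the keratins KRT8, KRT18 and KRT19. The epithelial cadherin CDH1 rose from 254 to 315 CPM (adjusted p = 0.0038), and EPCAM, at 189 against 197 CPM, did not pass (adjusted p = 0.47). Whether these had a part in the members' differences was not tested.

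P4 against EtOH vehicle sets progesterone beside the vehicle that the labels describe as ethanol. The EtOH vehicle cultures were used to choose the members, so their values are a description. The median log2 fold change of the members was -0.39, against -0.017 over all genes, and 7 of 10 members overlapped between the groups. EGR3 was lower by -2.42 ± 0.16, NR4A1 by -1.82 ± 0.32 and IER2 by -0.32 ± 0.11 (log2, SE), each with every P4 culture below every EtOH vehicle culture. That count of 3 of 10 compares with 28.7% of all genes lower and 28.8% higher in every culture.

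In the remaining members the 2 groups overlapped, although some fitted differences were larger in size than that of IER2. EGR2 differed by -0.58 ± 0.29, JUNB by -0.46 ± 0.14 and FOSB by -0.39 ± 0.12 (log2, SE). FOS was at 100 ± 15.1 against 119 ± 4.53 CPM, EGR1 at 139 ± 9.29 against 182 ± 32.1 CPM and FOSB at 55.2 ± 7.08 against 71.3 ± 12 CPM (SD, n = 3). JUN was the member with the largest positive value, at 0.57 ± 0.16 on the log2 scale, and ZFP36 differed by 0.02 ± 0.13. The ratio of EGR1 to EGR3 in CPM per kb put the members' divergence on a scale free of library size, at 5.58, 6.42 and 6.2 in EtOH vehicle and 20.8, 29.5 and 25.8 in P4 cultures, against 2.77, 3.84 and 2.17 in control. The ratio of NR4A1 to EGR1 was 0.425, 0.227 and 0.218 in EtOH vehicle and 0.152, 0.0691 and 0.08 in P4 cultures.

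**Figure D3:**
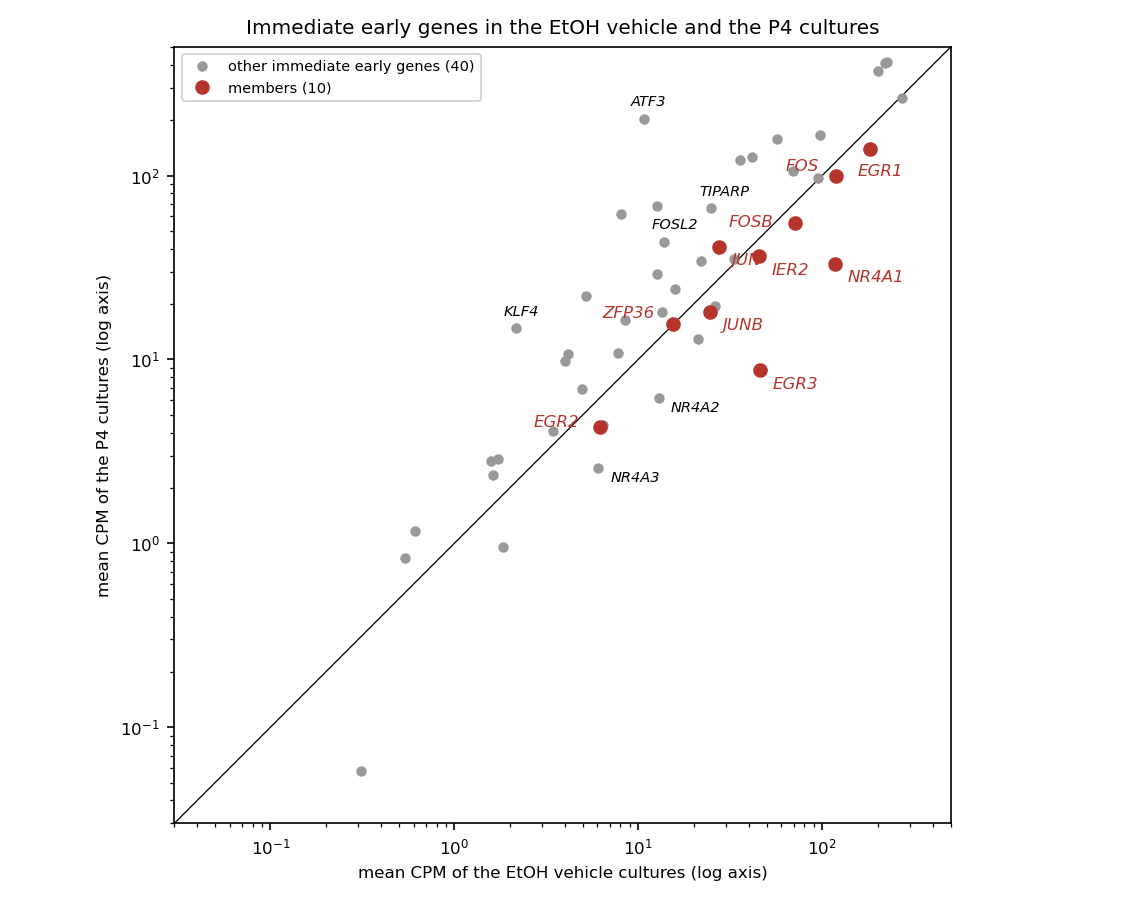
Mean CPM of the P4 cultures (vertical, log axis) against the EtOH vehicle cultures (horizontal, log axis) for the 10 members (red) and the 40 other immediate early genes (grey), with the line of equal levels. EGR3, at 46.2 and 8.75 CPM, and NR4A1 lie furthest below the line among the members, and ATF3, at 10.7 and 203 CPM, lies far above it.

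The other immediate early genes separated in 2 directions, with 27 of 39 higher and 6 lower in P4 than in EtOH vehicle cultures by edgeR, where 25.9% of all genes were higher and 25.1% lower. ATF3, a stress-induced relative of the AP-1 proteins, rose from 10.7 ± 1.06 to 203 ± 72.4 CPM (4.22 ± 0.26 on the log2 scale, adjusted p = 4.1e-08). KLF4 rose by 2.79 ± 0.24, FOSL2 by 1.66 ± 0.12 and TIPARP by 1.41 ± 0.10 (adjusted p = 9.3e-11, 2.5e-12 and 1.4e-12). The 6 that fell included both relatives of NR4A1, NR4A2 from 12.9 ± 1.83 to 6.2 ± 0.458 CPM and NR4A3 from 6.03 ± 0.965 to 2.58 ± 0.683 CPM (SD, n = 3, edgeR adjusted p = 1.8e-06 and 0.00012). BTG2, an antiproliferative gene, and RHOB, a small GTPase, fell by 0.69 and 0.40 on the log2 scale (adjusted p = 3.1e-05 and 0.014).

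MAPK feedback genes were higher in P4 cultures in 9 of 11 cases and lower in 1, with ETV5 up by 1.79 ± 0.10 and SPRY2 by 1.11 ± 0.11 (adjusted p = 1.5e-14 and 1.8e-09), and PHLDA1 was down by -0.93 ± 0.15 (adjusted p = 4.3e-05). Of the 14 upstream kinases and factors, 4 were higher and 1 lower. ATF1 was up by 0.80 ± 0.08 and MAP2K1 by 0.46 ± 0.08, and ELK3 was down by -0.34 ± 0.11 (adjusted p = 1.1e-09, 3e-05 and 0.009). SRF, at 82.7 ± 15.2 against 70.4 ± 13 CPM, did not pass (edgeR adjusted p = 0.17). EGR and AP-1 partners and targets counted 5 higher and 1 lower of 8, with JDP2 up by 1.38 ± 0.11 (adjusted p = 1.1e-11). Heat shock genes fell in 7 of 8 cases, among them HSP90AA1 by 1.45 and HSPA8 by 1.48 on the log2 scale (adjusted p = 3.4e-13 and 4.1e-12).

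Each titled PSAT1 culture set was compared with the P4 cultures and with the other set, none of which chose the members. Titled PSAT1 against P4 gave 0 of 10 members past the threshold (edgeR adjusted p = 1 for each), and 0% of all 18232 genes were higher and 0% lower. At an unadjusted p under 0.05 there were 401 genes and 0 members, and DESeq2 called 0 genes. The member differences ran from -0.24 to 0.13 on the log2 scale. The 95% interval of FOS was -0.18 to 0.20, that of EGR3 -0.60 to 0.16, and the widest, for NR4A1, was -0.92 to 0.43. Differences of FOS or FOSB beyond 0.30 in either direction lie outside these intervals, whereas falls of over 0.50 for NR4A1 and EGR3, and changes of over 0.50 in either direction for EGR2 (-0.67 to 0.53), remain within them.

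Titled PSAT1_P4 against P4 gave lower levels of all 8 members that also passed the filter in the low groups, with a median log2 fold change of -2.55 and adjusted p from 1.7e-22 to 8.5e-05 (edgeR). In that comparison 27.7% of all genes were higher and 28.8% lower. None of the 10 members overlapped between the groups, where 30.1% of all genes were higher and 30.9% lower in every culture. FOS differed by -6.25 ± 0.16, JUN by -4.45 ± 0.21, EGR1 by -4.49 ± 0.25, NR4A1 by -2.86 ± 0.41 and EGR3 by -1.23 ± 0.20 (adjusted p = 1.7e-22, 2.9e-13, 7.6e-09, 8.5e-05 and 1e-05). The titled PSAT1_P4 levels overlapped the control cultures in all 10 members, with a member median of 0.10 relative to control. Of all genes, 4.96% were higher and 6.18% lower in every titled PSAT1_P4 culture than in any control culture. Stromal and epithelial markers moved as well against P4, with 3 of 4 stromal markers higher, among them COL1A2 from 84.7 to 411 CPM (adjusted p = 1.5e-05), 3 of 5 epithelial markers higher and CDH1 lower. Their part in the result was not tested.

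Within the PSAT1 cultures, titled PSAT1_P4 minus titled PSAT1 gave all 8 of these members lower, with a median of -2.37 and adjusted p from 1.7e-22 to 2e-04, where 28.6% of all genes were higher and 29.2% lower. FOSB went from 1613 to 20 pooled reads, a ratio of 0.00795 (0.00484 to 0.0123), and EGR2 from 124 to 7, a ratio of 0.0362 (0.0142 to 0.0768). Of those 7 reads 6 came from titled PSAT1_P4 culture 2, and without it the fitted log2 fold change of EGR2 went from -4.70 to -6.66. JUNB and IER2 differed by -1.29 ± 0.15 and -1.85 ± 0.13 (adjusted p = 3.3e-08 and 7.3e-13). Of the other immediate early genes 38 of 39 were lower and 0 higher. FOSL2, TIPARP, KLF4 and NFKBIZ again had the smallest adjusted p, at -2.46 ± 0.12, -1.44 ± 0.10, -3.25 ± 0.23 and -2.35 ± 0.16 (adjusted p = 3.3e-16, 2e-13, 1e-12 and 4.7e-12). The largest difference on this list was that of ATF3, at -7.56 ± 0.34 (adjusted p = 9.7e-10). MAPK feedback genes counted 9 lower and 1 higher of 11. Of the stromal markers 3 of 4 were higher, with COL1A2 going from 74.6 to 411 CPM (adjusted p = 8.3e-06), and of the epithelial markers 3 of 5 were higher and CDH1 was lower, and their part in the members' differences was not tested. Under the column names in place of the titles, every one of these signs turns. The comparisons with the P4 cultures share those 3 cultures, and the comparisons with titled PSAT1 share that set.

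**Figure D4:**
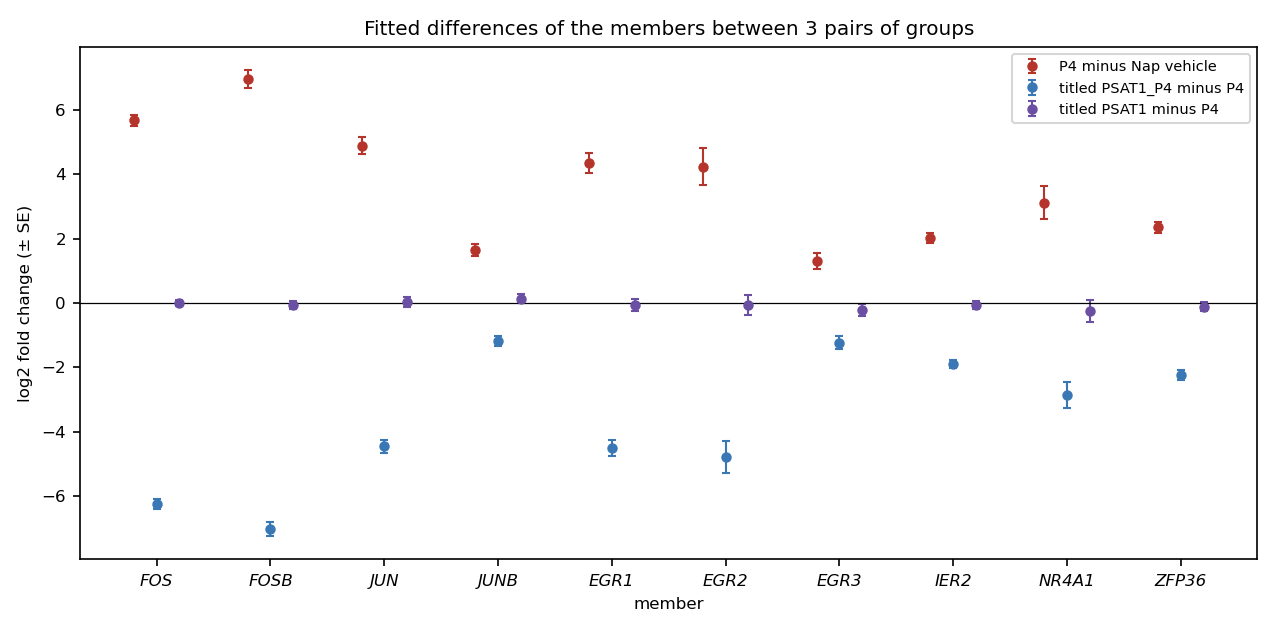
Fitted log2 fold changes of the 10 members (points, bars ± SE) for P4 minus Nap vehicle, titled PSAT1_P4 minus P4 and titled PSAT1 minus P4. All 10 are above 0 in the first, below 0 in the next, and between -0.24 and 0.13 in the last. FOSB and EGR2 passed the filter only through the groups where they were high.

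The genes most like the members were ranked by Pearson's r between their log2(CPM + 1) and the mean z-score of the 10 members over the 17 cultures, among 15657 genes with a mean of at least 1 CPM. These r describe cultures that fall into separate levels, share groups and set no test. The members themselves had r of 0.83 to 0.992. The highest outside them were AL596247.1 (0.978), HES1 (0.977), PTGS2 (0.975), NR4A3 (0.973), AL645608.7 (0.973), MCL1 (0.97), AC026124.1 (0.966), KLF6 (0.962), EIF4A1 (0.958) and NR4A2 (0.957). HES1, a repressor known as a target of NOTCH, averaged 45.8 CPM in control, 44.4 CPM with Nap vehicle, 149 CPM with EtOH vehicle and 160 CPM with P4. PTGS2 (cyclooxygenase-2) averaged 9.82, 11, 25.2 and 23 CPM in the same order. With 0.1 in place of 1 as the constant, 9 of these 10 stayed among the first 10.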

How the data were processed

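RNA from 17 Ishikawa cultures in 6 groups was sequenced as single-end reads from a stranded total RNA library kit. Per the study's methods, the authors trimmed adapters with Cutadapt, removed low-quality reads, kept uniquely aligned reads from Subread and counted them over GENCODE genes with featureCounts. Versions of these tools and the strand setting are not given in the sources used here. The deposited values are raw whole-number counts per gene and sample, and every column was matched to a culture by its name (0 columns not used). Groups follow sample titles. For the 6 PSAT1 cultures these contradict the column names.

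Of 60662 gene identifiers, 58587 were named from GENCODE 29 (43963 with the same identifier version), 2054 from a gene name table and 21 had no name. Positions are from GENCODE 29 (GRCh38). Genes were filtered with filterByExpr (minimum count 10), scaled with TMM factors and fitted with edgeR 4.0.16 (glmQLFit, robust, and glmQLFTest, R 4.3.3) in 1 fit over all cultures, with group as the only term. Adjusted p-values are Benjamini-Hochberg over all 18232 genes tested, with a threshold of 0.05. Log2 fold changes carry the SE derived from the F statistic, and their intervals use the normal approximation. Ratios of pooled counts carry exact conditional intervals at 95%, which, like the floor of 3 counts, cover counting error only. The script was tested on simulated data.

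The members and the gene lists were chosen with earlier results of these data known. Named were all members, the 10 genes most like them and, from each list and comparison, at most 4 genes per direction in order of adjusted p. JUND, KLF2, IER3 and the SRF value for P4 against EtOH vehicle were added after their values were seen. So was the ATF3 value for titled PSAT1_P4 against titled PSAT1. The ratios between members were likewise chosen, as was the restriction of tests between high and low groups to the 8 members that passed the filter in the low groups alone. The labels call the replicates biological but do not say what they shared, so p-values measure the spread between these cultures. Replicate pairs differed by more than counting noise (chi-square per degree of freedom 1.48 to 18.3). Deviations of same-numbered cultures had r from -0.117 to 0.397 over 15657 genes. In 0 comparisons of 3 pairs did each exceed 0.1, whereas in Nap vehicle against control both of only 2 pairs did (0.308 and 0.35), so no pairing was used. Alternatives were DESeq2 1.42.0, RLE and upper-quartile factors, no filter, only the groups compared, leaving out the PSAT1 cultures, a replicate block and leaving out each culture.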

Additional observations from a re-analysis of the deposited data

Results flagged for a closer look

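The difference in the P4 effect with and without PSAT1 depended on which label of the 6 PSAT1 cultures is read, and its test was added after the values were seen. By title, the members' median P4 effect was -3.52 on the log2 scale with PSAT1 and 3.68 without it, a median difference of -7.25, and the 8 members that also passed the filter in the low groups all passed the interaction test (edgeR adjusted p from 4e-25 to 7.8e-06), where 67% of all genes passed. The medians are over all 10 members, with FOSB and EGR2, which passed the filter only through the groups where they were high. By column name the effects were 3.52 and 3.68, with a median difference of -0.2. None of the 8 members that also passed the filter in the low groups passed the interaction test (smallest edgeR adjusted p = 0.99). By column name 0 of 18232 genes passed with edgeR, 700 had an unadjusted p under 0.05, and DESeq2 called 0. FOS differed by -11.93 ± 0.24 by title and by 0.59 ± 0.32 by column name. Which label is right was not tested.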

How the results depend on the processing

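FOSB and EGR2 passed the filter only through the groups where they were high, so both are left out of the calls here. All 8 other members were called in P4 against Nap vehicle, titled PSAT1_P4 against titled PSAT1 and titled PSAT1_P4 against P4. In titled PSAT1 against P4, 0 were called. Shares of all genes called in the main fit are given with each comparison above. For P4 against Nap vehicle, fits that left out a Nap vehicle culture are not counted. The calls were the same under every other alternative run. These were DESeq2, RLE and upper-quartile factors, no filter, only the groups compared, leaving out the PSAT1 cultures where they were not needed, the replicate block and leaving out each culture. With the replicate block the median over all 10 members was 3.74 for P4 against Nap vehicle (3.68 in the main fit) and -0.38 for P4 against EtOH vehicle. No count of calls changed by over 1.5 times with the block. Upper-quartile factors moved the median of all genes to at most 0.118 in size (titled PSAT1_P4 against titled PSAT1, from 0.016), and moved the median difference of the members by title, a result added after seeing the data, to -7.06.

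The medians here are over all 10 members, FOSB and EGR2 included, whereas those given with the tests above are over 8 members. With all cultures they were 3.68 for P4 against Nap vehicle, -3.52 for titled PSAT1_P4 against titled PSAT1 and -3.66 for titled PSAT1_P4 against P4. Leaving out 1 culture at a time, these medians ranged from 3.38 to 3.82 (lowest without P4 culture 1), from -3.59 to -3.2 and from -3.74 to -3.4 in the same order. For EtOH against Nap vehicle they ranged from 4.28 to 4.62. Against control they ranged from 3.47 to 3.86 for P4 and from 3.16 to 3.7 for titled PSAT1. The median difference by title ranged from -7.47 to -6.86. The cause of these shifts was not tested. Other immediate early genes higher in P4 than EtOH vehicle numbered 20 to 27, and those higher in EtOH vehicle than control 19 to 25. FOSB against control went from 7.08 to 7.81 without control culture 2. The shallowest library and the pair of Nap vehicle cultures limit the precision of the comparisons that use them.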
